A study of Mus musculus with 3 samples.

Results

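Dense blocks of enriched regions, 3 in all, were examined in which the ChIP-seq libraries of mouse embryonic stem (ES) cells listed nearly equal numbers of regions. They lie on chromosome 17 from 6 to 7 Mb, chromosome 8 from 19 to 20 Mb and chromosome 1 from 84 to 88 Mb (build mm9, as named in the submitters' processing notes). Every region of the 3 lists that starts in one of these windows is a member, which gives 6740 of 88857 regions. They comprise 2300 control regions (5.0% of that list), 2175 ZFP57 regions (9.87%) and 2265 KAP1 regions (10.9%). The windows were selected on their similar counts of regions in the 3 lists, so the counts themselves are a description and were not tested.

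Chromatin immunoprecipitation followed by sequencing (ChIP-seq) recovers the DNA bound by a protein with an antibody. The control library used an HA antibody in ES cells that carried no transgene, so its antibody had no tagged target. The ZFP57 library used the HA antibody in ES cells expressing HA-tagged ZFP57. For the third library, KAP1 was precipitated with a KAP1 (RBCC) antibody from E14 ES cells, again without a transgene. All cells were ES cells grown in normal ES cell medium. The line of the 2 HA libraries and the promoter that drives HA-ZFP57 are not named in the labels. Each group holds 1 library, so there was no replicate spread and no test between conditions. Only 2 antibodies were used, and no library of unselected input DNA was analysed here. The lists give a chromosome, a start and an end, every region is 150 bp wide, and sequencing depth is unknown. They hold no expression values, so the cell type could not be checked against marker genes.

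As background, ZFP57 is a KRAB zinc finger protein that protects imprinted methylation in early embryos and ES cells, and KAP1 (TRIM28) is the corepressor through which KRAB zinc finger proteins recruit repressive chromatin. Enriched regions found alike with a specific antibody and with one that has no target are usually treated as background of the method. A frequent textbook setting for them is sequence that the genome holds in more copies than the assembly shows, since reads of all copies are then placed on the few copies in the assembly. Proximal chromosome 17, the defensin-rich part of chromosome 8 and the Sp100 neighbourhood of chromosome 1 are known in the mouse for duplicated gene families. Copy number in these cells was not tested, and genes were not placed on the blocks because neither the mm9 sequence nor mm9 gene positions are used here.

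The 3 libraries matched closely in raw counts in each block. On chromosome 17 the control listed 777 regions (exact 95% Poisson interval 723 to 834), ZFP57 711 (660 to 765) and KAP1 720 (668 to 775). On chromosome 8 the counts were 559 control (514 to 607), 526 ZFP57 (482 to 573) and 547 KAP1 regions (502 to 595). On chromosome 1 they were 964 control (904 to 1027), 938 ZFP57 (879 to 1000) and 998 KAP1 regions (937 to 1062). The intervals cover counting error only. The control list as a whole was longer: the ZFP57 list held 0.479 and the KAP1 list 0.454 regions for each control region. Per 10000 regions of its own list, the chromosome 1 block therefore held 210 control, 426 ZFP57 and 478 KAP1 regions, the chromosome 17 block 169, 323 and 345, and the chromosome 8 block 122, 239 and 262.

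The regions were not spread over the windows but stood in stretches with steep edges. In steps of 50 kb, 30 of the 120 bins were dense, meaning that every list held at least 10 regions there. Among members, 97.4% of control regions, 98.4% of ZFP57 regions and 98.7% of KAP1 regions fell into those 30 bins. Of the other bins, 60 were empty in all 3 lists and 30 held at least 1 region, with at most 8 control, 5 ZFP57 and 6 KAP1 regions. No bin lay between those values and the sparsest dense bin, which held 15 control, 14 ZFP57 and 14 KAP1 regions.

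**Figure D1:**
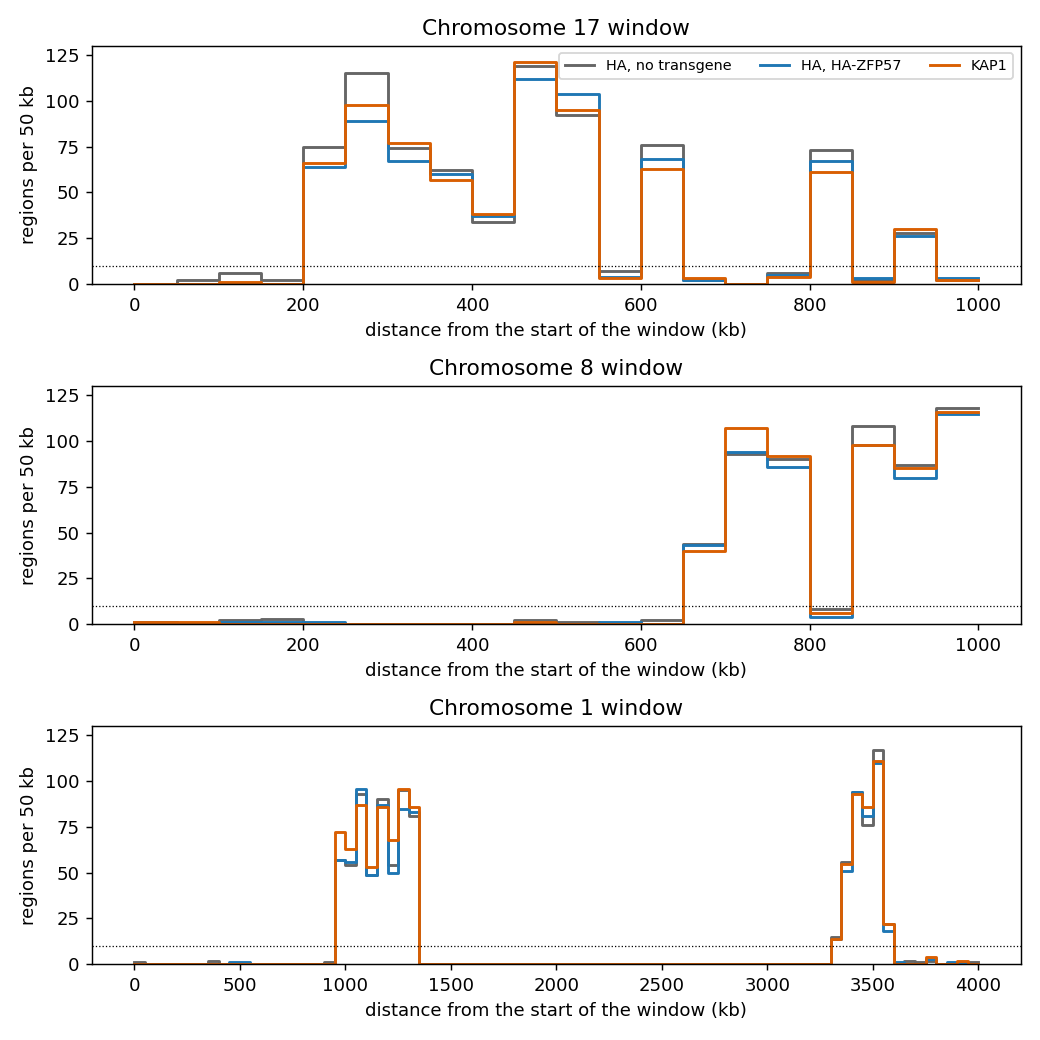
Regions per 50 kb bin (y axis) against the distance from the start of each window in kb (x axis) for the 3 libraries, with a dotted line at 10 regions. The 3 lines rise and fall in the same bins, and the largest ratio between the highest and the lowest list in a dense bin is 1.36.

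Joined, the dense bins formed 8 stretches. Chromosome 17 had 4 of them, from 6.20 to 6.55 Mb, 6.60 to 6.65 Mb, 6.80 to 6.85 Mb and 6.90 to 6.95 Mb. Chromosome 8 had 2, from 19.65 to 19.80 Mb and from 19.85 Mb to the end of the window. Chromosome 1 had 2, from 84.95 to 85.35 Mb and from 87.30 to 87.60 Mb. The dense bins covered 500 kb on chromosome 17, 300 kb on chromosome 8 and 700 kb on chromosome 1.

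Several edges were shared between libraries to within 500 bp. The longest stretch on chromosome 17 began at 6219439 in the control, 6219465 in ZFP57 and 6219463 in KAP1, a spread of 26 bp, after 34.6 kb without a region of any list. It ended at 6546300, 6545841 and 6546068, a spread of 459 bp. The first stretch on chromosome 1 began in its first dense bin at 84950268, 84950280 and 84950340, a spread of 72 bp, with a single control region in the bin before it, and ended at 85343472, 85343486 and 85343741, a spread of 269 bp. The second stretch on chromosome 8 began at 19853287, 19853469 and 19853307, a spread of 182 bp. Other edges were looser. The first KAP1 region of the first chromosome 8 stretch lay at 19652644, and the first control and ZFP57 regions followed at 19670253 and 19670244. The last control region of the second chromosome 1 stretch ended at 87594300, while ZFP57 and KAP1 ended at 87558620 and 87559585.

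The longest empty stretch in the windows separated the dense stretches of chromosome 1. No list held a region from 85343742 to 87343783, a length of 2000042 bp. Across the genome, 28 stretches of at least 2 Mb between neighbouring regions were empty in all 3 lists, of which 22 were on X and 6 on the other chromosomes. The boundary of the chromosome 8 window at 20 Mb cut through a dense stretch: the first 50 kb outside it held 86 control, 82 ZFP57 and 84 KAP1 regions. That stretch then gave way to 2041144 bp without a region, from 20038341 to 22079484. The first 50 kb bins beyond the other window boundaries held at most 1 region per list. Whether the empty stretches hold assembled sequence was not tested.

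Within the dense bins the lists rose and fell together. The bin with most control regions was 6.45 to 6.5 Mb on chromosome 17, with 119 control, 112 ZFP57 and 121 KAP1 regions. On chromosome 8 it was 19.95 to 20 Mb, with 118, 115 and 116, and on chromosome 1 it was 87.50 to 87.55 Mb, with 117, 110 and 111. The first dense bin held 75 control, 64 ZFP57 and 66 KAP1 regions on chromosome 17, 44, 43 and 40 on chromosome 8, and 57, 57 and 72 on chromosome 1. The last held 28, 26 and 30 on chromosome 17 and 22, 18 and 22 on chromosome 1. Counts thus differed several-fold between bins while the libraries stayed close within a bin.

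The highest list exceeded the lowest by a median factor of 1.11 over the 30 dense bins, with a range of 1.01 to 1.36. The widest gap of each block was at 85.20 to 85.25 Mb on chromosome 1 (54 control, 50 ZFP57 and 68 KAP1 regions), at 6.25 to 6.30 Mb on chromosome 17 (115, 89 and 98) and at 19.70 to 19.75 Mb on chromosome 8 (93, 94 and 107). The control alone was highest in 13 bins, KAP1 alone in 13 and ZFP57 alone in 2, and 2 were ties. The sparse bins of the windows did not share this evenness, with 59 control, 34 ZFP57 and 29 KAP1 regions in all. From 6.05 to 6.20 Mb on chromosome 17, for example, the 3 bins held 2, 6 and 2 control regions, 0 ZFP57 regions each, and 0, 1 and 0 KAP1 regions.

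Neighbouring regions followed each other at the same short distance in all blocks and libraries. Measured from start to start, the median distance to the next region of the same list was 412 bp (control), 416 bp (ZFP57) and 398 bp (KAP1) in the dense stretches of chromosome 17. It was 403, 424 and 430 bp on chromosome 8 and 402, 410 and 414 bp on chromosome 1. The 9 medians therefore spanned 398 to 430 bp, whereas in the rest of the genome the medians were 16.9 kb for the control, 4.87 kb for ZFP57 and 2.05 kb for KAP1. Distances between 200 and 800 bp made up 81.1% of all steps in the control, 80.9% in ZFP57 and 76.1% in KAP1, against 13.8%, 25.5% and 31.6% in the rest of the genome. Block steps were taken inside bins picked for holding at least 10 regions of every list, and steps elsewhere without that filter. Shorter steps in the blocks therefore follow in part from the choice of bins.

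**Figure D2:**
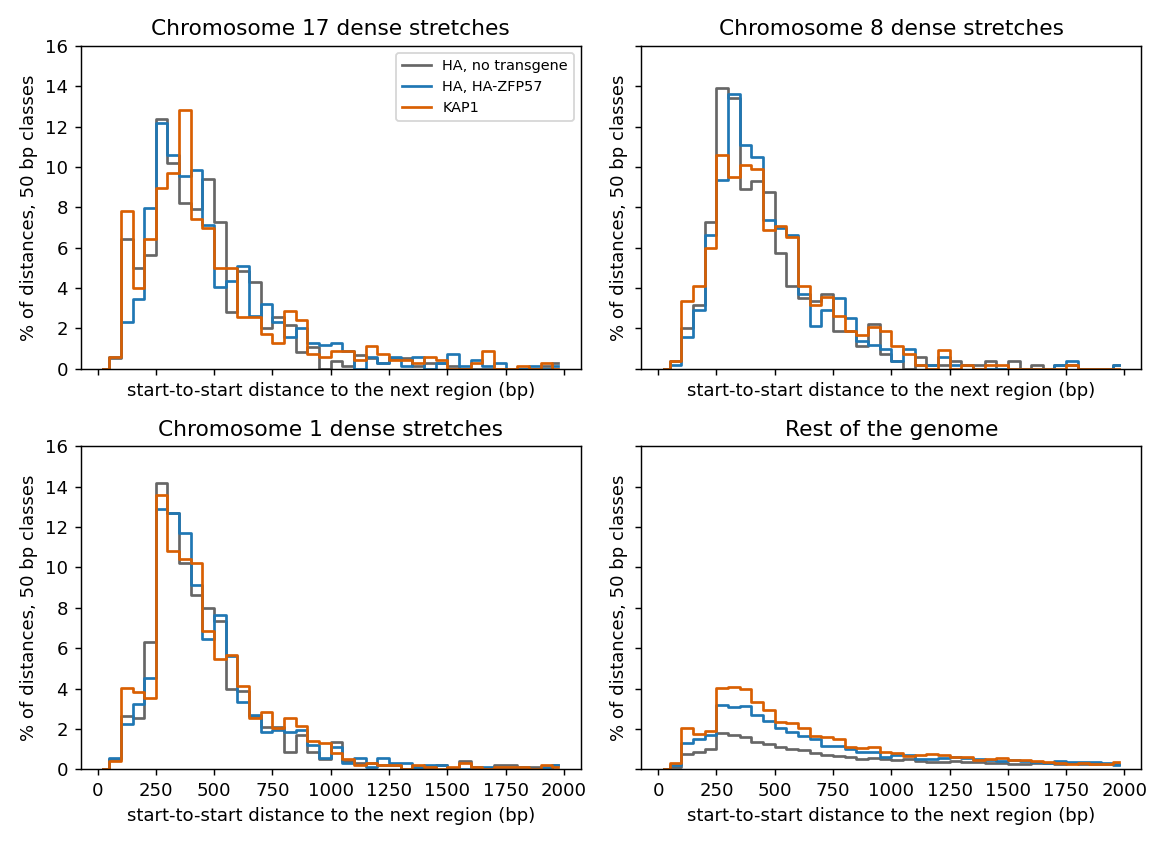
Share of start-to-start distances to the next region of the same list (y axis, percent per 50 bp class) against that distance up to 2 kb (x axis), for the dense stretches of each block and for the rest of the genome. In the blocks the 3 libraries peak together between 250 and 400 bp, with medians from 398 to 430 bp. The rest of the genome has its fullest classes in the same range, at up to 1.79% (control), 3.16% (ZFP57) and 4.06% (KAP1). More of its distances are longer.

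Regions of one list overlapped each other in a small share of steps, though a larger one than in the rest of the genome. Steps shorter than the region width of 150 bp numbered 95 of 2233 in the control (4.25%), 55 of 2133 in ZFP57 (2.58%) and 123 of 2228 in KAP1 (5.52%). In the rest of the genome their shares were 0.889%, 1.52% and 2.36%. Block steps came from bins picked for density, so these larger shares follow at least in part from that choice. Steps of 200 to 800 bp numbered 1810, 1726 and 1696 in the blocks. Elsewhere, 388, 301 and 438 steps under 150 bp stood beside 6035, 5052 and 5880 of 200 to 800 bp. Relative to steps of 200 to 800 bp, overlapping steps were not more frequent in the blocks. Of the short steps in the blocks, chromosome 17 held 52 in the control, 59 in KAP1 and 20 in ZFP57. The shortest step in the blocks was 51 bp, in the control on chromosome 1. The regions of one list covered 18.0% to 31.1% of the sequence of a dense stretch, except for the stretch from 6.90 to 6.95 Mb on chromosome 17, where coverage was 8.31% (control), 7.74% (ZFP57) and 8.94% (KAP1).

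Over the 3 blocks together, most members touched a region of both other lists. In the control, 1588 of 2300 control regions (69.0%, exact 95% binomial interval 67.1 to 70.9%) overlapped a region of both other lists by at least 1 bp, against 16.6% of the whole control list. The same held for 1586 of 2175 ZFP57 regions (72.9%, 71.0 to 74.8%), against 34.9% of that list, and for 1589 of 2265 KAP1 regions (70.2%, 68.2 to 72.0%), against 36.8%. The intervals cover counting error only, and regions that lie in clusters are not independent. Sharing was lower on chromosome 17, with 56.5% of control, 62.0% of ZFP57 and 60.6% of KAP1 regions, than on chromosome 8 (76.4%, 81.0% and 78.4%) or chromosome 1 (74.9%, 76.7% and 72.5%). In each library the interval of the chromosome 17 share lay below those of both other blocks. The shares depend on the overlap required: with at least 75 bp, the share over all members fell from 59.6% to 29.9% on chromosome 17, from 78.6% to 65.3% on chromosome 8 and from 74.7% to 54.4% on chromosome 1.

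**Figure D3:**
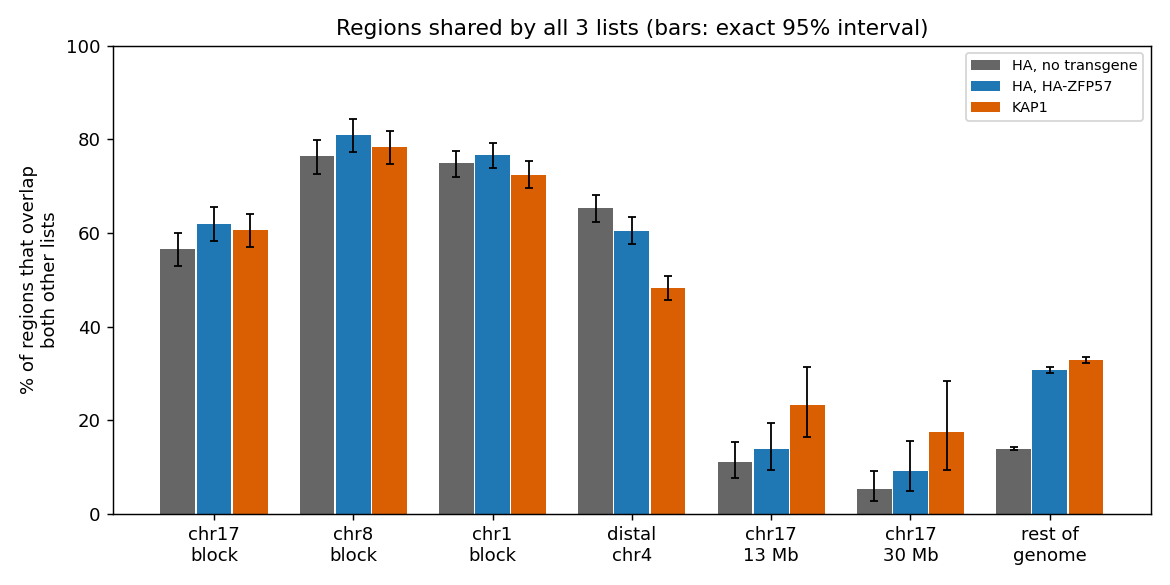
Share of each library's regions that overlap a region of both other lists (y axis, percent) in the 3 blocks, in 3 other dense windows and in the rest of the genome, with exact 95% binomial intervals. The blocks on chromosomes 8 and 1 lie between 72.5% and 81.0%, and the rest of the genome between 13.9% and 32.8%.

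Dense lists touch each other more often than sparse ones, so the room for overlap was measured as well. In the dense stretches, a 150 bp region would touch a control region at 41.8% of all start positions, a ZFP57 region at 40.4% and a KAP1 region at 41.5%. The observed overlaps were 82.0% of control regions with ZFP57, 79.6% of control with KAP1 and 84.4% of ZFP57 with KAP1, which is 2.03, 1.92 and 2.03 times those values. By block, the ratio of overlap to this room ran from 1.8 to 2.04 over the 6 directed pairs of lists on chromosome 17, from 1.67 to 1.78 on chromosome 8 and from 2.12 to 2.25 on chromosome 1. On this scale chromosome 17 lay above chromosome 8, the reverse of their order by plain share. The largest possible ratio falls as the room grows, and the room was 38.5 to 40.9% on chromosome 17 and 49.0 to 50.8% on chromosome 8. The ratio therefore cannot rank these blocks. The measure describes the lists as they stand and is no test. In whole lists 23.6% of control regions overlapped ZFP57, 21.2% of control regions overlapped KAP1 and 44.7% of ZFP57 regions overlapped KAP1. Seen from KAP1 in the dense stretches, 80.0% of regions overlapped the control and 81.4% overlapped ZFP57, against 47.1% and 47.5% of the whole KAP1 list. Of the ZFP57 regions there, 84.9% overlapped the control, against 49.0% of the whole ZFP57 list.

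Regions of a single library made up a small part of the blocks. Members that overlapped neither other list were 10.4% of the control (240 regions), 4.97% of ZFP57 (108) and 9.62% of KAP1 (218). The ZFP57 share was the lowest of the 3 in each block, at 6.19% on chromosome 17, 3.99% on chromosome 8 and 4.58% on chromosome 1. In the sparse bins, by contrast, 72.9% of control regions stood alone (59 in all), as did 44.1% of ZFP57 regions (34 in all) and 41.4% of KAP1 regions (29 in all). These shares are near those of the rest of the genome, which were 75.1%, 45.2% and 46.2%.

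Joining all overlapping regions into loci gave 819 loci on chromosome 17, 619 on chromosome 8 and 1091 on chromosome 1. All 3 libraries were present at 412 (50.3%), 416 (67.2%) and 696 (63.8%) of them. The commonest composition was 1 region of each library, at 264, 365 and 582 loci. Loci of 1 library alone were 108 control, 40 ZFP57 and 63 KAP1 loci on chromosome 17, 49, 21 and 41 on chromosome 8, and 69, 43 and 93 on chromosome 1. The control was thus the most frequent single library on chromosomes 17 and 8, and KAP1 on chromosome 1. Loci were counted in the blocks only, so no share over the genome stands beside these. In the whole lists the control also had most regions that overlapped neither other list, 33031 against 9073 for ZFP57 and 8816 for KAP1.

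The three-way share was also taken for each of the 8 dense stretches. On chromosome 17 the control share was 60.6% in the long stretch of 350 kb and 47.4%, 50.7% and 53.6% in the 3 short ones, whose intervals were wide (33.9 to 72.5% for the last, with 28 control regions). On chromosome 8 it was 78.0% and 78.3%, and on chromosome 1 75.9% and 75.5%, and the intervals of the stretches on each of these chromosomes overlapped. The KAP1 share ran from 43.3% to 62.9% on chromosome 17, was 74.1% and 82.6% on chromosome 8, and was 71.4% and 75.6% on chromosome 1. Every stretch of 50 kb is on chromosome 17, so for these short stretches length and chromosome cannot be told apart. The 350 kb stretch of chromosome 17 had a control interval of 56.5 to 64.6%. This lay below those of the shorter stretches of 150 kb on chromosome 8 (72.0 to 83.2% and 73.3 to 82.7%). It also lay below that of the 300 kb stretch on chromosome 1 (70.9 to 79.8%). The difference was not tested.

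Overlapping regions lay closer to each other in position on chromosomes 8 and 1 than on chromosome 17. Among overlapping regions on chromosome 8, the median distance between midpoints was 25 bp from control to ZFP57, 28 bp from control to KAP1 and 16 bp from ZFP57 to KAP1. On chromosome 1 these distances were 28, 34 and 23 bp, and on chromosome 17 they were 47, 54 and 52 bp. Midpoints within 50 bp of each other made up 78.4%, 77.7% and 83.5% of the pairs on chromosome 8, and 73.2%, 65.4% and 72.2% on chromosome 1. On chromosome 17 they made up 51.8%, 47.8% and 48.6%, where offsets spread evenly over all possible overlaps would give 33.8%. In the rest of the genome the shares were 70.9%, 66.4% and 70.6%.

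Control regions lay slightly to the left, at lower coordinates, of the ZFP57 and KAP1 regions they overlapped. The median offset was 19 bp to ZFP57 and 18 bp to KAP1 on chromosome 8, 18 and 17 bp on chromosome 1, and 16 and 11 bp on chromosome 17. On chromosome 8 the ZFP57 midpoint lay to the right of the control midpoint in 371 pairs and to the left in 100 (78.8% to the right, exact 95% interval 74.8 to 82.4%). ZFP57 and KAP1 showed no such order, with 219 KAP1 midpoints to the right and 232 to the left (48.6%, 43.9 to 53.3%). The same offset of 19 bp between the control and each of the other lists was present in the rest of the genome, so it was not particular to the blocks. Moving all control regions by 19 bp raised the share of control and ZFP57 midpoints within 10 bp from 20.3% to 36.5% on chromosome 8, from 20.1% to 28.9% on chromosome 1 and from 11.4% to 13.7% on chromosome 17.

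**Figure D4:**
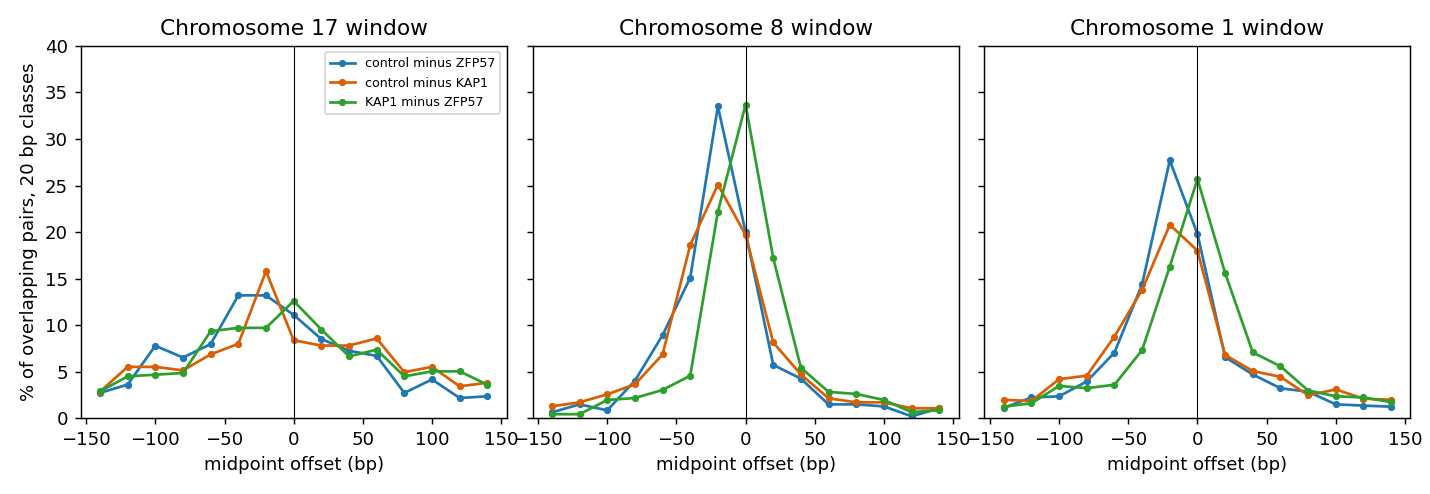
Distribution of midpoint offsets between overlapping regions (x axis, bp, in 20 bp classes) as a share of the overlapping pairs (y axis, percent) for the 3 pairs of libraries in each window. Offsets of control against ZFP57 and KAP1 peak left of 0, those of KAP1 against ZFP57 peak at about 0, and the chromosome 17 curves are flatter than the others.

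The closest coincidences of all 3 libraries were within a few bases. On chromosome 1 the control region from 87517834 to 87517983 matched a ZFP57 region at the same bases, and the KAP1 region began 1 bp further right. The next closest there were the control regions from 85100142 to 85100291, with midpoints of the 3 libraries within 2 bp, and from 84956510 to 84956659, within 3 bp. On chromosome 8 the control region from 19893161 to 19893310 came first, with the 3 midpoints within 3 bp, followed by those starting at 19735313 and 19743858, each within 4 bp. On chromosome 17 the regions starting at 6269357 and 6483579 had midpoints within 4 bp and that at 6460675 within 6 bp. All 3 midpoints lay within 25 bp of each other at 134 of 559 control regions on chromosome 8, 156 of 964 on chromosome 1 and 30 of 777 on chromosome 17. These loci were not counted over the genome. By pairs (control to ZFP57, control to KAP1, ZFP57 to KAP1), 44.1%, 39.1% and 50.6% of overlaps in the rest of the genome were within 25 bp. The shares were 50.6%, 45.1% and 68.5% on chromosome 8, 45.8%, 39.7% and 52.7% on chromosome 1, and 26.3%, 26.2% and 28.2% on chromosome 17. What these positions hold was not analysed here.

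The chromosome 17 block contained stretches whose regions recurred, base for base, at 1 fixed distance within the same list. Among all pairs of regions more than 1 kb apart, the exact distance of 166023 bp was the most frequent in each library, with 16 pairs in the control, 23 in ZFP57 and 16 in KAP1. The next most frequent exact distances at least 1 kb away had 8 pairs in each library. Most of these pairs formed 1 run per library. It reached from 6369518 to 6377501 in the control, from 6367359 to 6379366 in ZFP57 and from 6369431 to 6377221 in KAP1. Over the span of the ZFP57 run, the longest with 12008 bp, the control listed 23 regions, ZFP57 29 and KAP1 24. At 166023 bp further right, from 6533382 to 6545389, they listed 23, 30 and 25. Of the regions in the first place, 15 control, 22 ZFP57 and 15 KAP1 regions had a counterpart at exactly that distance, and 19, 28 and 20 had one within 5 bp of it.

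The positions of individual regions show the recurrence in each library. The control regions at 6369518, 6370388, 6370863 and 6371154 recurred at 6535541, 6536411, 6536886 and 6537177. The ZFP57 regions at 6369523, 6370141, 6370470 and 6370869 recurred at 6535546, 6536164, 6536493 and 6536892, and the KAP1 regions at 6369431, 6370275 and 6370461 recurred at 6535454, 6536298 and 6536484. Between libraries, the positions in the first place coincided exactly for 1 of the 23 control regions with ZFP57 and for 0 with KAP1, and the median offset was 43 bp to ZFP57 and 73 bp to KAP1. Counterparts at exactly 166023 bp but in the other library numbered 2 from control to ZFP57, 1 from ZFP57 to control and 0 in the other 4 directions. The stretch was picked for its exact pairs within a list, so the counts within and between lists are a description and are not set against each other.

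**Figure D5:**
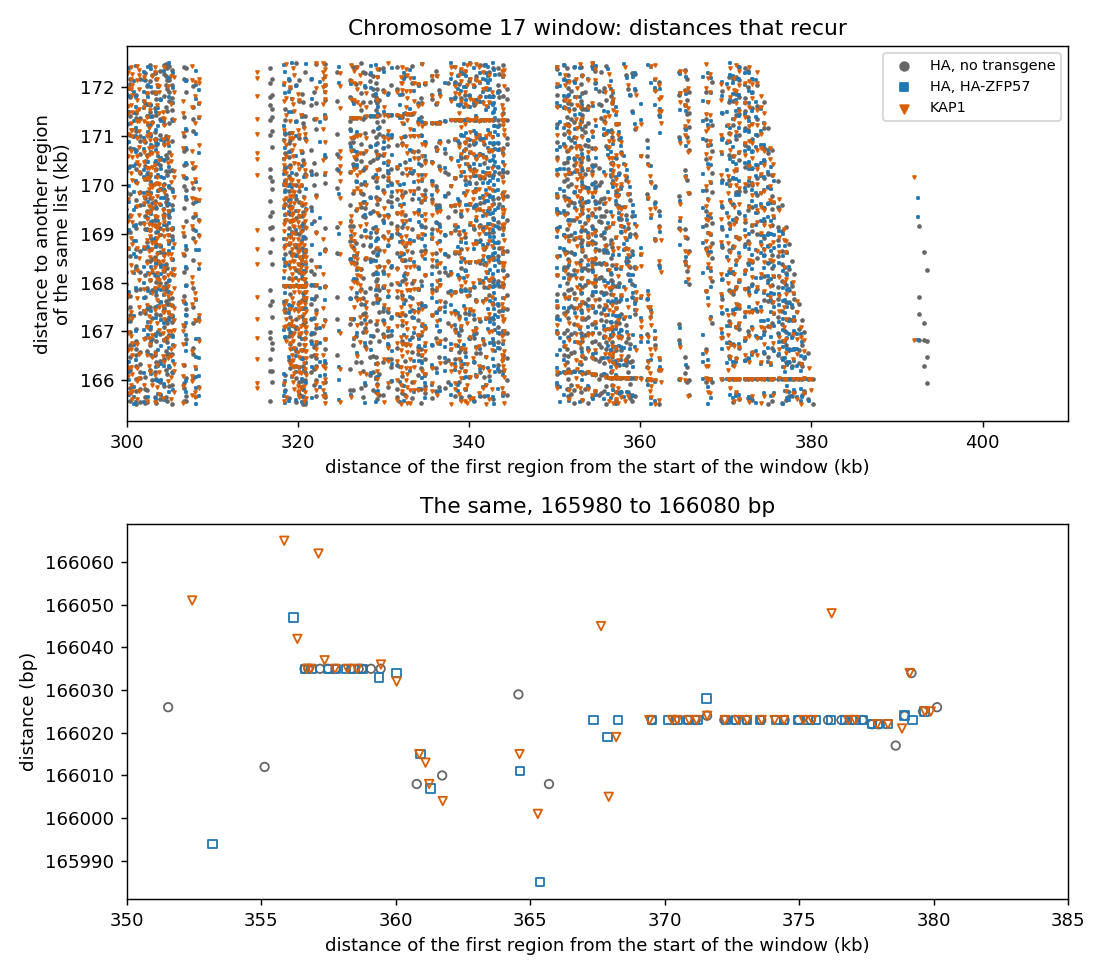
Distance from a region to other regions of the same list (y axis, kb above and bp below) against the position of the first region from the start of the chromosome 17 window (x axis, kb), for the 3 libraries. Horizontal rows of points mark distances that recur, at 166035 bp, 166023 bp and, in the upper panel, 171335 bp, and the points of the 3 libraries lie on the same rows.

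Further runs at other exact distances lay beside this one. From 6356609 to 6359588 all 10 control regions recurred at exactly 166035 bp, as did 7 of 10 ZFP57 and 5 of 7 KAP1 regions. From 6339061 to 6344127 the distance was 171335 bp, at 4 of 12 control, 6 of 16 ZFP57 and 5 of 12 KAP1 regions exactly and at 10, 11 and 8 within 5 bp. From 6318454 to 6320930 it was 167935 bp, at 5 of 7 control, 4 of 6 ZFP57 and 6 of 10 KAP1 regions. The pairs at 171335 bp numbered at least 5, the minimum for a run, in ZFP57 and KAP1 but not in the control, and those at 167935 bp did so in the control and KAP1 but not in ZFP57. The 4 stretches follow each other in the same order in both places, and the distance between the places shifts from run to run. In the chromosome 17 totals, regions in a run and their counterparts are counted separately, and whether they stem from the same reads was not tested. How the aligner treated reads that match several places is not given in the sources used here, and its part in the runs was not tested.

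On chromosomes 8 and 1 the 3 leading exact distances of one library included none of those of another. On chromosome 8 the highest number of pairs at 1 exact distance was 7 in the control, 8 in ZFP57 and 7 in KAP1. These were at 2170 bp, tied with 11168 and 16133 bp, in the control, at 17322 bp in ZFP57 and at 28044 bp in KAP1. On chromosome 1 the highest number was 9 in the control, at 3115 and 11271 bp. It was 8 in ZFP57, at 3410, 4592 and 31797 bp, and 9 in KAP1, at 2403, 4161 and 16518 bp. Only 3 distances at least 1 kb apart were taken per library, so further ties were not counted. A run, defined as at least 5 pairs at 1 exact distance with neighbouring pairs no more than 5 kb apart, occurred 10 times over the 3 lists on chromosome 17 and 0 times on chromosome 8. It occurred 1 time on chromosome 1, with 5 control pairs at 28967 bp from 87474872 to 87481904 and no run in ZFP57 or KAP1. These numbers depend on the minimum: with at least 4 pairs, runs numbered 28 on chromosome 17, 9 on chromosome 8 and 12 on chromosome 1.

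Distances were also counted within 5 bp instead of exactly. On chromosome 17 the leading distances were 2249, 1131 and 166021 bp in the control (35, 31 and 31 pairs), 166020, 5535 and 2574 bp in ZFP57 (37, 33 and 28 pairs) and 1470, 8313 and 20548 bp in KAP1 (30 pairs each). On chromosome 8 they were 1017, 18895 and 9055 bp in the control, 4711, 1519 and 3202 bp in ZFP57 and 2942, 5823 and 8038 bp in KAP1, with 24 to 28 pairs each. On chromosome 1 they were 1770, 3112 and 4916 bp in the control, 4590, 1682 and 3414 bp in ZFP57 and 1416, 2624 and 4164 bp in KAP1, with 34 to 37 pairs each. Within the tolerance of 5 bp, the distance near 166 kb on chromosome 17 was among the 3 leading ones in the control and ZFP57. It was not among those of KAP1, although KAP1 held it too. From 6367359 to 6379366, 20 of 24 KAP1 regions had a counterpart within 5 bp of 166023 bp. No control region lay in a chain of more than 3 regions spaced by the leading control distance. The longest chains began at 6459357 on chromosome 17, at 19682533 on chromosome 8 and at 85068763, 85241815 and 87483272 on chromosome 1.

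The blocks were set against 3 other dense windows to see where they differ. Other windows with near-equal counts, such as chromosome 13 from 13 to 14 Mb (207, 208 and 229 regions), were not included. Of the 1072 control regions on distal chromosome 4 (145 to 148 Mb), 65.3% were shared by all 3 lists, as were 60.5% of the 1153 ZFP57 regions and 48.3% of the 1448 KAP1 regions. There, 28.9% of KAP1 regions overlapped neither other list, compared with 9.62% in the blocks and 42.2% of the whole KAP1 list. For the control this share was 11.7% there, 10.4% in the blocks and 71.9% of the whole list. For ZFP57 it was 127 of 1153 regions there, 108 of 2175 in the blocks and 41.2% of the whole list. Chromosome 17 from 13 to 14 Mb, with 279, 202 and 133 regions, shared 11.1%, 13.9% and 23.3%, and chromosome 17 from 30 to 31 Mb, with 226, 131 and 69 regions, shared 5.31%, 9.16% and 17.4%. Density adds room for overlap, and these shares are not adjusted for it. They did not follow density alone. The chromosome 17 block, with 777 control regions, shared 56.5% of them. The equally long chromosome 8 window, with 559, shared 76.4%. Over whole windows, the ratio of overlap to room was 5.51 to 6.98 on distal chromosome 4, 5.57 to 6.86 at 13 Mb and 5.26 to 7.57 at 30 Mb. In the blocks it was 3.42 to 3.97 on chromosome 17, 5.37 to 5.69 on chromosome 8 and 11.9 to 12.6 on chromosome 1. This ratio depends on how much of a window is empty. The median step in the control was 757 bp on distal chromosome 4, 904 bp at 13 Mb and 1579 bp at 30 Mb, all longer than the 402 to 412 bp of the blocks. The steps of these windows were taken over the whole window and those of the blocks over dense bins alone. Among overlapping control and ZFP57 regions, midpoints lay within 50 bp in 77.1% of pairs on distal chromosome 4, in 57.6% at 13 Mb (exact 95% interval 46.9 to 67.9%) and in 51.1% at 30 Mb (36.1 to 65.9%). The blocks on chromosomes 8 and 1 were near the first of these values, and the chromosome 17 block, at 51.8%, was near the last. With 1 library per group, these differences were not tested.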

How the data were processed

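The authors deposited 1 list of region coordinates per library, with no header. Per the submitters' processing notes, the authors used Bowtie and build mm9. The peak caller, its threshold, the Bowtie version and what was done with reads that match several places are not stated in these sources. The lists hold 0 score columns, so all results are counts, distances and overlaps. Coordinates are printed 1-based.

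Members were taken by their start, and both the windows and the measures were chosen with earlier results of these data known. Bins were 50 kb, and dense bins held at least 10 regions of every list. Overlap was counted from 1 bp, and the counts were the same with bedtools 2.31.1. Distances were counted over pairs more than 1 kb apart, within 5 bp and exactly. Runs of exact distances and the move of control regions were added after seeing the data. Named bins, distances and loci follow a fixed rule: the fullest, first, last and most unequal dense bin, the 3 leading distances and the 3 closest loci of each block. The regions listed from the run at 166023 bp, and the 4 runs themselves, were chosen after their values were seen. Shares carry exact (Clopper-Pearson) and counts exact Poisson 95% intervals, and both cover counting error only. The code was tested on simulated lists. Python 3.11.15, numpy 2.4.6, pandas 2.3.3, scipy 1.17.1 and matplotlib 3.10.9 were used. No gene is named on the blocks and no sequence is shown, because no mm9 genome is used here.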

Additional observations from a re-analysis of the deposited data

How the results depend on the processing

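No paired analysis was possible because there is 1 library for each condition, and for the same reason no library could be dropped from a group. Of 44 alternative settings, 17 left the value within its counting interval or within 1.5 times, and 27 moved it. The length in dense bins, 1500 kb, ranged from 1375 to 1900 kb over its 4 alternatives. The share of members in all 3 lists was 59.6% on chromosome 17, 78.6% on chromosome 8 and 74.7% on chromosome 1. It fell to 29.9%, 65.3% and 54.4% when 75 bp of overlap were required and rose to 94.5%, 96.6% and 95.7% when midpoints within 500 bp counted, while merging regions or keeping dense bins alone left it within its interval. The lowest of the 3 lists in pairs at its leading distance had 30, 27 and 36 pairs within 5 bp, 16, 7 and 8 pairs at the exact distance and 172, 139 and 218 within 50 bp, which follows from the width counted. The median distance to the closest neighbour within a list, 313, 328 and 320 bp, became 466, 443 and 441 bp after regions no more than 150 bp apart were merged. Midpoints within 50 bp made up 49.4%, 79.8% and 70.3% of overlapping pairs, and 38.0%, 69.1% and 60.5% of those within 500 bp. Moving the control by 19 bp gave 82.7% on chromosome 8, 72.3% on chromosome 1 and 49.7% on chromosome 17. The ratio to control over the blocks, 0.946 for ZFP57 and 0.985 for KAP1, became 1.97 and 2.17 per 10000 regions of the list, so the equality holds for raw counts. Runs over the 3 lists numbered 10, 0 and 1 with at least 5 pairs, 28, 9 and 12 with at least 4, and 4, 0 and 0 with at least 8. Unknown depth and threshold limit the comparison of counts between libraries.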

Other observations

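Exact distances that recurred in every library were also present outside the blocks. In the 47 other 1 Mb windows with at least 100 control regions, 1 most frequent exact distance was taken per list. It was the same in all 3 lists in 6 windows. On chromosome 17 from 15 to 16 Mb it was 31367 bp, with 18 control, 21 ZFP57 and 21 KAP1 pairs, among only 176, 170 and 191 regions. On chromosome 17 from 35 to 36 Mb it was 45200 bp, with 21, 19 and 21 pairs among 191, 139 and 151 regions. The others were 57211 bp on chromosome 17 from 17 to 18 Mb (5, 8 and 10 pairs), 34792 bp on chromosome 3 from 92 to 93 Mb (10, 7 and 12 pairs), and on X 453669 bp from 120 to 121 Mb (6, 5 and 6 pairs) and 122755 bp from 166 to 167 Mb (9, 7 and 11 pairs). In the blocks, 1 exact distance led in all 3 lists on chromosome 17. None of those taken did on chromosomes 8 and 1, where some distances tied.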
